A study of Mus musculus with 6 samples.

Results

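The Slc25a genes encode the mitochondrial solute carriers, and they were described here in the anterior prostate (AP) of mice with an over-activated Notch1 receptor. The members were the genes whose symbol is Slc25a followed by a number, which gave 47 of the 54532 named genes in the expression tables. RNA-seq was run on 3 OEx and 3 Ctrl male mice at 20 weeks of age, with 1 library per mouse from total RNA of the whole AP. The OEx mice carried Pbsn-Cre and 1 Rosa26 N1ICD allele, so that the Notch1 intracellular domain (N1ICD) was made where the Pbsn promoter drives Cre, in the prostatic epithelium. The Ctrl mice carried the same Rosa26 N1ICD allele without the Cre according to the methods of the study, whereas the GEO labels call their genotype wild type. Whole AP also holds stroma, muscle and blood vessels, in which this Cre is not meant to act.

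The inner mitochondrial membrane is closed to most charged metabolites, and the SLC25 carriers are the proteins that move nucleotides, phosphate, carboxylates, amino acids, iron and cofactors across it. Most of them work as exchangers, taking 1 substrate in while another goes out, so they tie the reactions of the cytosol to those of the matrix. The carriers are made in the cytosol and reach the inner membrane by a dedicated import route, the TIM22 route. The prostate epithelium is known for making and secreting citrate, which leaves the matrix through the citrate carrier Slc25a1. Canonical N1ICD acts in the nucleus together with the DNA-binding protein RBPJ.

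The labelled tissue and the libraries were checked first. Luminal epithelial markers were present in all 6 mice, with a summed level of 3158 to 6219 FPKM (fragments per kilobase of exon, scaled to the depth of the library) in OEx and of 16639 to 20460 FPKM in Ctrl mice. Of these 6 markers, Krt18 and Pbsn were called lower, while Cdh1 and Epcam were higher in every OEx mouse than in any Ctrl mouse. The 3 basal markers summed to 3.72 to 5.32 FPKM in OEx against 99.4 to 122 in Ctrl, the 5 smooth muscle markers to 351 to 418 against 1043 to 2245, and all of them were called lower on the deposited scaling. No tested marker of endothelium (4.99 to 6.05 against 10.8 to 14.6 FPKM in sum) or fibroblasts was called, and each adipocyte marker was below 1 FPKM. The fibroblast markers summed to 115, 120 and 17.0 FPKM in OEx 1 to 3 and to 36.0 to 64.9 FPKM in Ctrl mice. Of the 4 immune markers only Cd68 was tested, and it was not called; Ptprc, below the filter, was higher in every OEx mouse (1.85, 1.55 and 0.427 FPKM) than in any Ctrl mouse (0.0742, 0.114 and 0.201 FPKM). Ctrl 3 stood apart, because the 8 seminal vesicle genes summed to 16128 FPKM in it and to at most 4.36 FPKM in each of the other 5 mice. Mice 1 and 2 of a group were far more alike than either was to mouse 3: the mean chi-square per gene between their recovered reads was 2.93 (Ctrl) and 3.67 (OEx), where sampling alone gives 1, against 50.4 to 86.7 for the pairs with mouse 3. They were kept as separate mice, and the counts were also computed with their mean as 1 sample per group. Notch1 was at 41.9, 47.6 and 78.9 FPKM in OEx 1 to 3 and at 5.18, 5.55 and 3.34 FPKM in Ctrl 1 to 3, a value that does not separate the transgene from the native gene.

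Depth and scaling bear on every comparison that follows. Between 14762182 and 18650962 reads on annotated genes were recovered per mouse, and 3 reads correspond to 0.161 to 0.203 CPM. The most abundant gene held 14.3% to 22.02% of the recovered reads of a Ctrl library and at most 1.12% of those of an OEx library. The denominators behind the deposited FPKM values were 1.22 to 1.35 times the recovered reads in OEx and 0.726 to 0.815 times in Ctrl mice. Scaled to library totals instead, the median log2 fold change of all tested genes moved from -0.07 to 0.59, and where the call of a carrier differed between the scales, its log2 fold change is given on both. Ratios between carriers of 1 mouse do not depend on the scaling at all.

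Of the 47 carriers, 37 reached a mean of 1 FPKM and were tested, with log2 fold changes on the log2(FPKM + 1) scale and called at FDR < 0.05 and more than 2-fold. In OEx mice 10 of the 37 were called lower (27.0%, against 15.5% of all tested genes), 4 were called higher (10.8% against 12.8%) and 23 were not called. By FDR alone, 21 carriers were lower (56.8% against 36.5%) and 8 were higher (21.6% against 30.9%). Among the more abundant genes, at a mean of 5 FPKM or more, 10 of 27 carriers were called lower (37.0% against 21.7%) and 3 were called higher (11.1% against 9.41%), and by FDR alone 15 were lower (55.6% against 49.1%) and 6 higher (22.2% against 23.4%). OEx and Ctrl mice did not overlap for 29 of the 37, a separation that 72.5% of all tested genes showed, with 21 carriers lower in every OEx mouse (against 38.9% of all) and 8 higher (against 33.6%). The median log2 fold change of the tested carriers was -0.52 and that of all tested genes -0.07. In a whole tissue, fewer cells of a type and less RNA per cell cannot be told apart. The basal and muscle markers moved with the same groups, and their part in these counts was not tested.

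The calls moved with the scaling. Scaled to library totals, 2 carriers were called lower (5.41% against 4.02% of all tested genes) and 8 were called higher (21.6% against 31.4%), and the median of the carriers was 0.13 against 0.59 for all tested genes. By FDR alone, 11 were then lower (29.7% against 13.2%) and 14 higher (37.8% against 58.4%). The carriers thus lay 0.44 below all genes on the deposited scaling and 0.47 below them with library totals, but 0.20 below them at a mean of 5 FPKM or more and 0.21 below them with no filter. All 10 carriers called lower stayed below 0 with library totals, at -1.60 to -0.48 and each at FDR < 0.05, but only Slc25a35 and Slc25a1 kept a change of more than 2-fold. All 4 carriers called higher were called on both scales. The sign of 11 of the 37 tested carriers differed between the scales.

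**Figure D1:**
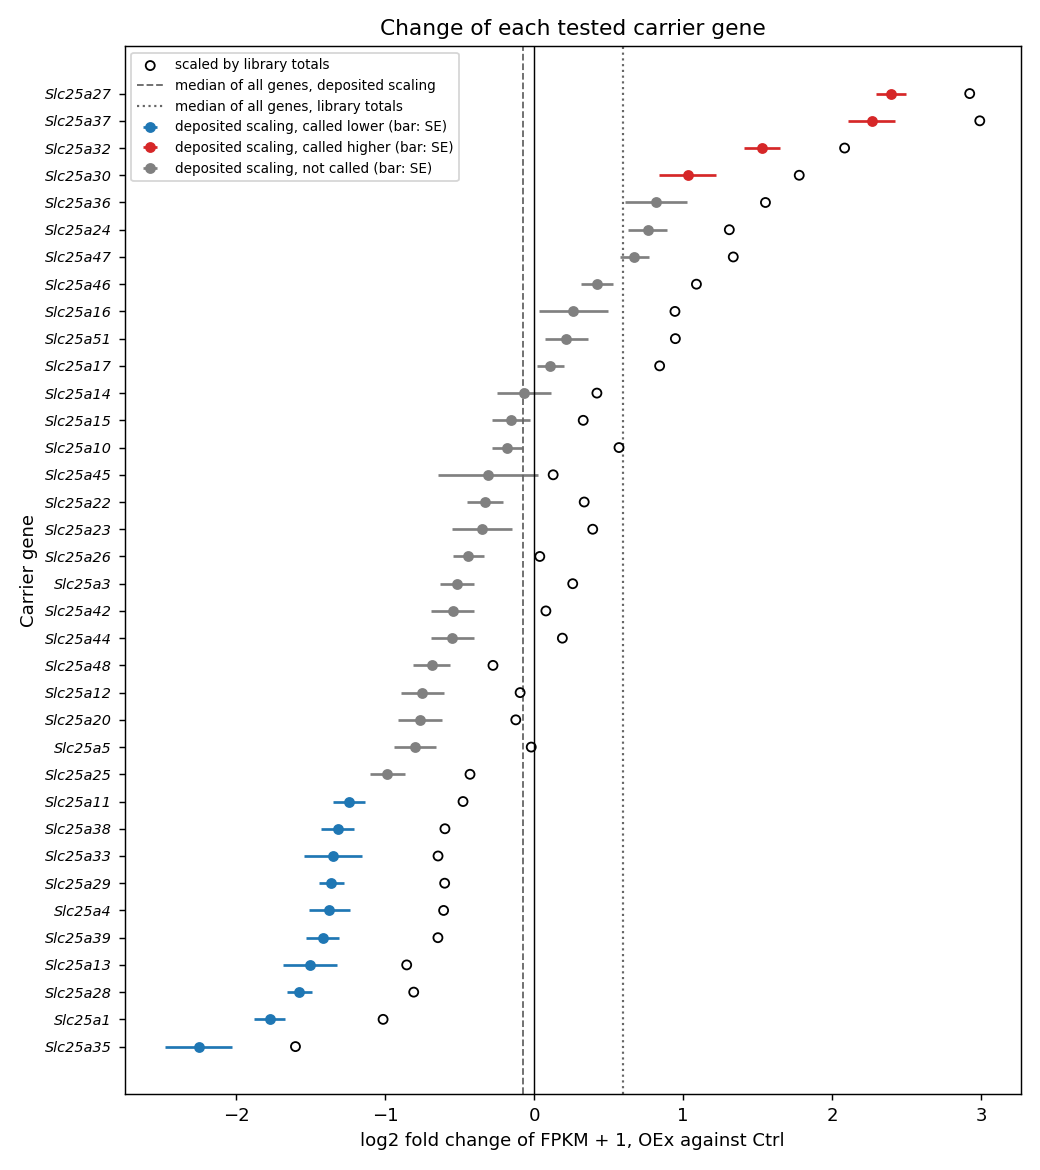
Log2 fold change of FPKM + 1, OEx against Ctrl (x axis), for 36 tested carriers (y axis), with 3 mice per group. Filled points give the deposited scaling with its standard error, open points give library totals, and the vertical lines mark the medians of all tested genes at -0.07 and 0.59; Slc25a27 and Slc25a37 are at the top and Slc25a35 at the bottom on the deposited scaling.

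The promoter sequences of called carriers are shown to place them in the genome and to show where the letters bound by RBPJ and by 3 factors of mitochondrial gene control occur. RefSeq promoters (GRCm38.p6, windows of 300 bases that end 50 bases past the start) were held for 36 of the 47 carriers, with 46 starts, among them 9 of the 10 carriers called lower and 1 of the 4 called higher. Searched on both strands, the RBPJ letters TGGGAA were in 8 of 46 carrier promoters (17.4%) and in 25.6% of all 32851 promoters. The GABPA letters CCGGAAG were in 7 (15.2% against 8.86% of all), the NRF1 letters, GCGCA and GCGC with any 1 base between them, in 2 (4.35% against 4.60%) and the ESRRA letters AAGGTCA in 1 (2.17% against 4.72%). Of the called carriers with an entry, only Slc25a30, Slc25a38 and Slc25a4 held any of these letters, and they are printed in gene direction with the match in capitals, together with Slc25a1, which was the most lowered carrier with an entry and held none. The Slc25a30 promoter (chr14:75786988-75787287, minus strand) had the RBPJ letters on its other strand at bases 83 to 88. The GABPA letters were at bases 205 to 211 in Slc25a38 (chr9:120110132-120110431, plus strand) and at bases 121 to 127 in Slc25a4 (chr8:46211013-46211312, minus strand). The Slc25a1 window was chr16:17928170-17928469 on the minus strand. A match is a run of letters and not a measured binding site.
Slc25a30: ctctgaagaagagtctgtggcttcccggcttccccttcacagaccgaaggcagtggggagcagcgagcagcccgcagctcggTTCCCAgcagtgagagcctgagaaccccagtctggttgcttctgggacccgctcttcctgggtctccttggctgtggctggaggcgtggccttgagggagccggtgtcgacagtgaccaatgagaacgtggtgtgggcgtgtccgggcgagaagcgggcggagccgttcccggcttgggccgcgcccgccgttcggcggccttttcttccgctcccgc
Slc25a38: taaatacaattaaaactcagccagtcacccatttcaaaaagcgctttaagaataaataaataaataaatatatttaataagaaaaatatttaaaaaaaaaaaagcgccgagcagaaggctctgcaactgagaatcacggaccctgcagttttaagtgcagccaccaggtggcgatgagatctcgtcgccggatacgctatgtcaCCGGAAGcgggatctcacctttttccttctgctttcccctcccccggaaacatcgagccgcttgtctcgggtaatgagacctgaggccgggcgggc
Slc25a4: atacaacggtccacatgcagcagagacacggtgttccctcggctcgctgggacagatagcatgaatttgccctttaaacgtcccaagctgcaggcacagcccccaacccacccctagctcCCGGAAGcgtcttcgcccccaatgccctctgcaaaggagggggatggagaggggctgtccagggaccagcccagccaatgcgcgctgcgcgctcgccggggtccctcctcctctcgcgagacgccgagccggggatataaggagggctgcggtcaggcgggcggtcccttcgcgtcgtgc
Slc25a1: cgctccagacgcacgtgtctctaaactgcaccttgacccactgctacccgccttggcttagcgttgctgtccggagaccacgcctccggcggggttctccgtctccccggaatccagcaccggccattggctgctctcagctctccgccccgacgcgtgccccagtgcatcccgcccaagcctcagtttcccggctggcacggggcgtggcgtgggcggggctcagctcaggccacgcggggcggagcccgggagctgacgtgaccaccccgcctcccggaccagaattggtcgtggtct

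ADP/ATP exchange and phosphate import supply the ATP synthase, and Slc25a5 and Slc25a3 were among the 3 most abundant carriers in both groups. Slc25a5, the ADP/ATP carrier 2, had 144, 144 and 144 FPKM in OEx 1 to 3 and 276, 283 and 203 FPKM in Ctrl 1 to 3. It ranked first among the carriers in both groups, and every OEx mouse was below every Ctrl mouse. Its log2 fold change was -0.80 ± 0.141 (SE, FDR = 0.00238), short of the 2-fold criterion, and it was -0.02 with library totals. In its transcripts 33.8% of the 50-base windows also occur in 9 other annotated genes, whose summed level was 3.99 to 8.43 FPKM.

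Slc25a4, the ADP/ATP carrier 1 that is typical of muscle and heart, had 29.1, 32.9 and 27.3 FPKM in OEx and 72.0, 70.9 and 95.0 FPKM in Ctrl mice. The groups did not overlap, and Ctrl 3 was the highest. Slc25a4 was called lower, at a log2 fold change of -1.37 ± 0.139 (SE, FDR = 0.000218), but it was not called with library totals (-0.61). The skeletal muscle markers also had a higher sum in Ctrl mice (188 to 433 FPKM against 26.1 to 33.5 in OEx, highest in Ctrl 3), as did the smooth muscle markers. Nearly all of the skeletal sum was Acta1, at 184 to 426 FPKM in Ctrl and 24.3 to 31.2 FPKM in OEx mice. Ckm, at most 3.64 FPKM, was called lower too, and Mylpf was not called (FDR = 0.0915). The skeletal genes Myh4 and Tnnt3 stayed below 1 FPKM in every mouse, and the part of muscle in the result was not tested. Without Ctrl 3 the log2 fold change of Slc25a4 was -1.24. Slc25a31, the germ cell form, was at 0 to 0.0471 FPKM.

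Slc25a3, the phosphate carrier, had 72.1, 68.4 and 73.1 FPKM in OEx and 113, 108 and 87.5 FPKM in Ctrl mice. All 3 OEx mice were below the lowest Ctrl mouse. The log2 fold change was -0.52 ± 0.114 (SE, FDR = 0.00645), which did not meet the 2-fold criterion, and with library totals it was 0.26.

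**Figure D2:**
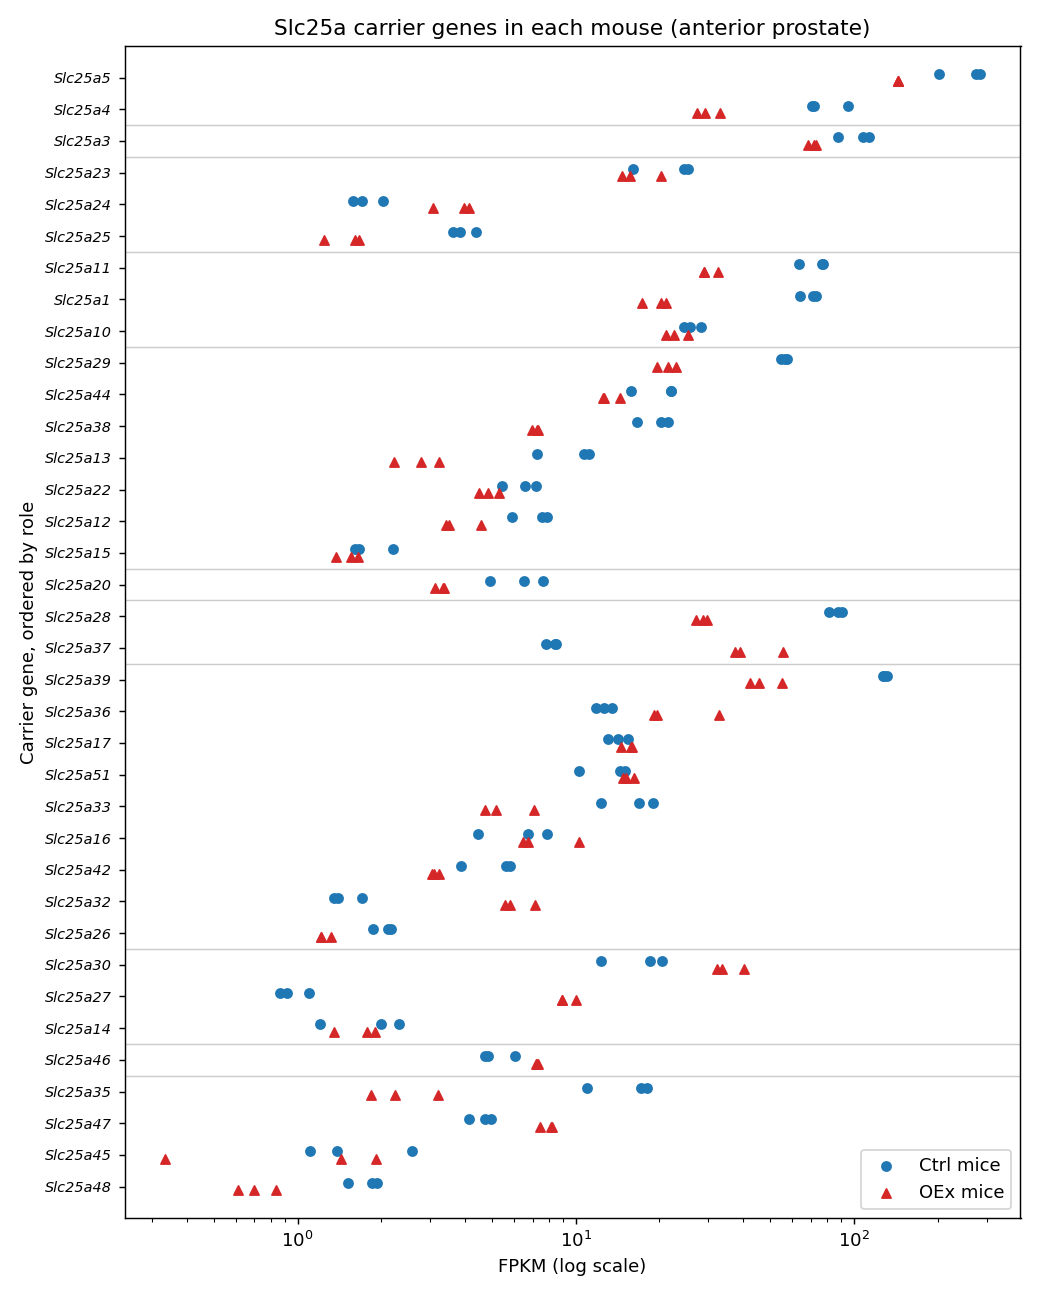
FPKM in each mouse on a log scale (x axis) for 36 tested carriers (y axis), ordered by role and separated by lines between the roles, with 1 symbol per mouse. Slc25a5 is the most abundant, between 144 and 283 FPKM; the OEx mice lie to the left of the Ctrl mice for Slc25a1, Slc25a28 and Slc25a39, and to the right for Slc25a27, Slc25a32 and Slc25a37.

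The carboxylate carriers exchange citrate, malate, oxoglutarate and succinate. Slc25a1, the citrate carrier, had 17.4, 20.3 and 21.1 FPKM in OEx and 73.1, 71.1 and 63.8 FPKM in Ctrl mice, read from 750 to 2098 reads per mouse. The mice of each group lay close together and far from the other group. Its mean was 3.54-fold lower in OEx, with a log2 fold change of -1.77 ± 0.104 (SE, FDR = 3.84e-05), and it was called lower on both scales.

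Slc25a11, the oxoglutarate carrier of the malate-aspartate shuttle, had 28.8, 28.8 and 32.4 FPKM in OEx and 77.4, 77.0 and 63.5 FPKM in Ctrl mice, with no overlap. It was called lower (log2 fold change -1.24 ± 0.108 (SE), FDR = 0.000120), but not with library totals (-0.48). Its exons overlap those of Rnf167 on the other strand (19.4 to 31.1 FPKM), and since the strand used in counting was not given, reads of the pair cannot be told apart. Slc25a10, the dicarboxylate carrier, did not pass the test, at 21.04 to 25.4 FPKM in OEx and 24.6 to 28.3 FPKM in Ctrl mice with overlapping groups (log2 fold change -0.18, FDR = 0.147). With library totals its log2 fold change was 0.57 and it was higher by FDR alone. Slc25a21, the oxodicarboxylate carrier, stayed below 0.1 FPKM in all 6 mice. In this role 2 of 3 tested members were called lower, where 15.5% of all tested genes were, and 1 of 3 with library totals, where 4.02% were.

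All 7 tested amino acid carriers had log2 fold changes below 0, as did 53.0% of all tested genes, and 3 were called lower (15.5% of all). With library totals 4 of the 7 were below 0 (25.6% of all) and 0 were called lower (4.02% of all). Slc25a29, a carrier of basic amino acids, had 19.7, 21.4 and 22.9 FPKM in OEx and 57.6, 54.7 and 56.6 FPKM in Ctrl mice. This was the tightest of the 3, with both groups within a few FPKM of their means and a log2 fold change of -1.36 ± 0.0848 (SE, FDR = 4.48e-05), or -0.60 with library totals. Slc25a38, which carries glycine for haem synthesis, had 6.93, 7.31 and 7.26 FPKM in OEx and 20.3, 21.5 and 16.6 FPKM in Ctrl mice. The OEx mice were nearly equal and all below the Ctrl mice, and the log2 fold change was -1.32 ± 0.109 (SE, FDR = 0.000106), or -0.60 with library totals.

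Slc25a12 and Slc25a13 encode the aspartate/glutamate carriers, the other limb of the malate-aspartate shuttle. Slc25a13 had 3.22, 2.77 and 2.22 FPKM in OEx and 10.7, 11.1 and 7.26 FPKM in Ctrl mice. It was called lower with no overlap between the groups (log2 fold change -1.505 ± 0.181 (SE), FDR = 0.000433), but it was not called with library totals (-0.86). Slc25a12 had 3.49, 3.42 and 4.56 FPKM in OEx and 7.53, 7.89 and 5.90 FPKM in Ctrl mice. It also lay lower in every OEx mouse, but its log2 fold change of -0.75 ± 0.143 (SE, FDR = 0.00346) did not meet the 2-fold criterion. With library totals it was -0.09 and did not pass by FDR (0.441). Of the remaining tested members, Slc25a44 (branched-chain amino acids, -0.55) and Slc25a22 (glutamate, -0.33) were lower by FDR alone, and Slc25a15 (ornithine, -0.16) did not pass. With library totals the signs of all 3 turned, to 0.19, 0.34 and 0.33, and Slc25a22 was then higher by FDR alone. Slc25a2 and Slc25a18 were too low to be tested.

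The mitoferrins bring iron into the matrix for haem and iron-sulfur clusters, and the pair went in opposite directions. Slc25a28, mitoferrin 2, which most tissues use, had 28.7, 26.9 and 29.6 FPKM in OEx and 90.7, 88.0 and 81.2 FPKM in Ctrl mice. Slc25a37, mitoferrin 1, best known from developing red blood cells, had 37.4, 39.0 and 55.8 FPKM in OEx and 8.39, 8.49 and 7.83 FPKM in Ctrl mice. Neither gene overlapped between the groups, and OEx 3 was the highest for Slc25a37.

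Slc25a28 was called lower, 3.05-fold by mean FPKM, at a log2 fold change of -1.58 ± 0.0830 (SE, FDR = 3.13e-05), but it was not called with library totals (-0.81). Slc25a37 was called higher, 5.35-fold, with a log2 fold change of 2.26 ± 0.158 (SE, FDR = 6.04e-05), and on both scales. Mitoferrin 1 rose from rank 20 of the 47 carriers in Ctrl mice to rank 4 in OEx mice, and mitoferrin 2 went from rank 4 to rank 8. The 5 erythroid markers summed to 14.0, 11.0 and 25.4 FPKM in OEx and to 38.8, 35.8 and 155 FPKM in Ctrl mice. The 4 globin genes among them were called lower on the deposited scaling, whereas with library totals none of the 5 passed by FDR, and Alas2 overlapped between the groups. Their part in the change of Slc25a37 was not tested. A share of 6.99% of the 50-base windows of Slc25a37 transcripts occurs in Gm16867, which was below 0.1 FPKM in every mouse, and Gm27223 and Gm31748 on the other strand were listed at 0.

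The carriers of nucleotides, cofactors and glutathione formed the largest role, with 10 of 11 tested, 2 called lower (15.5% of all tested genes were) and 1 called higher (12.8% of all). With library totals 0 were called lower (4.02% of all) and 2 higher (31.4% of all). Slc25a39, through which glutathione enters the matrix, had 42.5, 45.6 and 55.3 FPKM in OEx and 127, 131 and 128 FPKM in Ctrl mice. It was second only to Slc25a5 in Ctrl mice, and every OEx mouse was far below the Ctrl mice. Its log2 fold change was -1.42 ± 0.112 (SE, FDR = 8.84e-05), but it was not called with library totals (-0.65). Its close relative Slc25a40 lay just under the filter, at 0.974, 0.902 and 1.15 FPKM in OEx and 0.524, 0.645 and 0.392 FPKM in Ctrl mice, so it was higher in every OEx mouse but was not tested.

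Slc25a32, the folate and FAD carrier, had 5.58, 5.80 and 7.16 FPKM in OEx and 1.35, 1.40 and 1.70 FPKM in Ctrl mice. It was called higher with no overlap, 4.17-fold by mean FPKM, with a log2 fold change of 1.53 ± 0.122 (SE, FDR = 9.20e-05). Slc25a33 and Slc25a36 both carry pyrimidine nucleotides for the synthesis of mitochondrial DNA and RNA. Slc25a33 had 5.18, 4.73 and 7.10 FPKM in OEx and 19.0, 16.9 and 12.3 FPKM in Ctrl mice. All OEx mice lay below the Ctrl mice and it was called lower (log2 fold change -1.35 ± 0.195 (SE), FDR = 0.000991), but not with library totals (-0.64). Slc25a36 had 19.0, 19.6 and 32.6 FPKM in OEx and 12.7, 11.8 and 13.5 FPKM in Ctrl mice. It lay above Ctrl in every OEx mouse and most in OEx 3, but with a log2 fold change of 0.82 ± 0.205 (SE, FDR = 0.0113) it did not meet the 2-fold criterion, while it did with library totals (1.55).

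The other tested cofactor carriers were not called. Among them, Slc25a42 (coenzyme A, log2 fold change -0.55) and Slc25a26 (S-adenosylmethionine, -0.44) were lower by FDR alone. With library totals these log2 fold changes were 0.08 and 0.04. Slc25a51, the NAD carrier, the peroxisomal carrier Slc25a17 and the coenzyme A-related Slc25a16 did not pass by FDR, at 0.22, 0.11 and 0.26 on the deposited scaling, and their groups overlapped. With library totals all 3 were higher by FDR alone, at 0.95, 0.84 and 0.95.

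Of the 3 carriers related in sequence to the uncoupling proteins, 2 were called higher on both scales, where 12.8% of all tested genes were called higher on the deposited scaling and 31.4% with library totals, and 0 were called lower. Slc25a27, also called UCP4 and best known from neurons, had 8.96, 8.95 and 10.04 FPKM in OEx and 0.914, 0.864 and 1.10 FPKM in Ctrl mice, from 703 to 805 and from 44 to 66 reads per mouse. All OEx mice were far above all Ctrl mice, and among the tested carriers Slc25a27 had the largest positive change, 9.70-fold by mean FPKM. Its log2 fold change was 2.40 ± 0.0989 (SE, FDR = 2.05e-05), and it went from rank 37 in Ctrl to rank 17 in OEx mice.

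Slc25a30, the kidney mitochondrial carrier protein, had 33.6, 32.3 and 40.2 FPKM in OEx and 18.5, 20.5 and 12.3 FPKM in Ctrl mice. The groups did not overlap, with OEx 3 highest and Ctrl 3 lowest. It was called higher, just past the 2-fold criterion, with a log2 fold change of 1.03 ± 0.193 (SE, FDR = 0.00318). The call was lost without Ctrl 3 (0.82), without OEx 3 (0.94), without both (0.73) and under upper-quartile scaling (0.88). Slc25a14, also called UCP5, did not pass the test, at 1.36 to 1.91 FPKM in OEx and 1.21 to 2.31 FPKM in Ctrl mice. The founding proteins of this branch carry Ucp symbols and are given with the other transport genes.

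The ATP-Mg/phosphate carriers load the matrix with adenine nucleotides and are opened by cytosolic calcium, and none of the 3 tested was called. Slc25a23 had 14.6, 15.6 and 20.2 FPKM in OEx and 24.5, 25.2 and 16.1 FPKM in Ctrl mice, so the groups overlapped through mouse 3 of each (log2 fold change -0.35, FDR = 0.160; 0.39 with library totals). Slc25a24 had 4.15, 3.06 and 3.96 FPKM in OEx and 1.58, 1.71 and 2.03 FPKM in Ctrl mice. Slc25a25 had 1.66, 1.61 and 1.24 FPKM in OEx and 4.37, 3.85 and 3.62 FPKM in Ctrl mice.

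The last 2 of these did not overlap between the groups and went in opposite directions. Their log2 fold changes were 0.76 ± 0.131 (SE, FDR = 0.00216) for Slc25a24 and -0.98 ± 0.118 (SE, FDR = 0.000425) for Slc25a25, the carrier that lay closest to the 2-fold criterion without passing it. At this level the pseudocount mattered: with a pseudocount of 0.1 in place of 1 both were called, at 1.02 and -1.34. With library totals Slc25a24 was called (1.31) and Slc25a25 was not (-0.43). Slc25a25 shares exon sequence with Naif1 on the other strand, which was at 0.856 to 2.46 FPKM. Slc25a41, the calcium-independent form, was at 0 in all Ctrl mice and at most 0.0657 FPKM in OEx mice.

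Fatty acids enter the matrix as acylcarnitines through Slc25a20, which had 3.13, 3.34 and 3.36 FPKM in OEx and 7.61, 6.54 and 4.90 FPKM in Ctrl mice. It was below Ctrl in every OEx mouse but was not called (log2 fold change -0.76, FDR = 0.00361; -0.12 with library totals). Slc25a46 is the family member of the outer membrane, where it acts in the shape and fusion of mitochondria. It had 7.22, 7.26 and 7.34 FPKM in OEx and 4.83, 4.74 and 6.05 FPKM in Ctrl mice, was above Ctrl in every OEx mouse and was not called (0.42, FDR = 0.0110), although it was called with library totals (1.09).

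Slc25a35, one of the members placed here among those whose substrate is not settled, had the most negative change of the family. It had 2.24, 1.83 and 3.21 FPKM in OEx and 18.1, 17.2 and 11.0 FPKM in Ctrl mice, from 154 to 213 and from 614 to 832 reads. The groups lay far apart, with mouse 3 of each group nearest to the other. Its mean was 6.36-fold lower in OEx mice, and its log2 fold change was -2.25 ± 0.224 (SE, FDR = 0.000203), or -1.60 with library totals. Rangrf, which overlaps it on the other strand, was at most 0.609 FPKM. Of the 3 other tested members of this role, Slc25a47 was higher (0.67, and called with library totals at 1.34) and Slc25a48 lower (-0.69) by FDR alone, and Slc25a45 did not pass (-0.31, FDR = 0.441). With library totals Slc25a48 was at -0.28 and did not pass by FDR (0.0812).

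In the single pair of neighbouring carriers with both members tested, the directions differed. In GENCODE M21 coordinates (GRCm38), 4 pairs of carriers lay within 50000 bases of each other. Slc25a29 (chr12:108825873-108835883, minus strand), which was called lower, and Slc25a47 (chr12:108836046-108856815, plus strand), which lay higher by FDR alone, were separated by 162 bases. This gap holds for the GENCODE boundaries only. The RefSeq promoter window of Slc25a47 was inside its GENCODE interval, at chr12:108850879-108851178. In the other 3 pairs an expressed carrier (Slc25a5, Slc25a23 or Slc25a24) lay next to one that was too low to be tested (Slc25a43, Slc25a41 or Slc25a54).

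The 10 untested carriers were Slc25a2, Slc25a18, Slc25a21, Slc25a31, Slc25a34, Slc25a40, Slc25a41, Slc25a43, Slc25a53 and Slc25a54. Their means over the 6 mice ran from 0.0123 to 0.765 FPKM. For 6 of them the mean was below 0.1 FPKM with at most 6 reads in any mouse, so that a difference between the groups was not detectable at this depth.

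Ratios between related carriers within a mouse give the shift in make-up without any scaling between mice. Over 8 pairs set for related substrates, with earlier results of these data known, all 8 ratios separated the groups. Each had an exact permutation p of 0.1 (two-sided, also 0.1 after Benjamini-Hochberg adjustment), which is the smallest value 3 against 3 mice allow. Single genes separated the groups for 72.5% of all tested genes, and the share over other pairs of genes was not computed. The widest shift was in iron: Slc25a37 over Slc25a28 was 1.30, 1.45 and 1.89 in OEx mice and 0.0925, 0.0965 and 0.0964 in Ctrl mice. Mitoferrin 1 thus outnumbered mitoferrin 2 by FPKM in every OEx mouse and was below 0.1 of its level in every Ctrl mouse, a 16.1-fold difference of the ratio.

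The calcium-regulated carriers showed a similar exchange of places. Slc25a24 over Slc25a25 was 2.49, 1.90 and 3.19 in OEx and 0.362, 0.444 and 0.561 in Ctrl mice, a 5.51-fold difference that crossed 1 between the groups. Of the pyrimidine nucleotide carriers, Slc25a36 over Slc25a33 was 3.68, 4.15 and 4.59 in OEx and 0.668, 0.701 and 1.10 in Ctrl mice, 5.15-fold apart. Slc25a36 was thus the more abundant of this pair in all OEx mice and in 1 Ctrl mouse. Its transcripts share 6.70% of their 50-base windows with Gm13217, which was at 0.405 to 2.73 FPKM.

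Slc25a39 over its relative Slc25a40 was 43.6, 50.6 and 48.1 in OEx and 242, 203 and 326 in Ctrl mice, 5.33-fold lower in OEx. The other shifts were smaller. The log2 ratio differed by 1.43 for Slc25a24 over Slc25a23, by -0.92 for Slc25a13 over Slc25a12, by -0.60 for Slc25a4 over Slc25a5 and by -0.55 for Slc25a1 over Slc25a11. The Slc25a4 over Slc25a5 ratio leaned on Ctrl 3 (0.468, against 0.261 and 0.250 in Ctrl 1 and 2), and without it the difference was -0.31. For 7 of the 8 pairs, leaving out any 1 mouse moved the difference by less than 1.5 times.

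**Figure D3:**
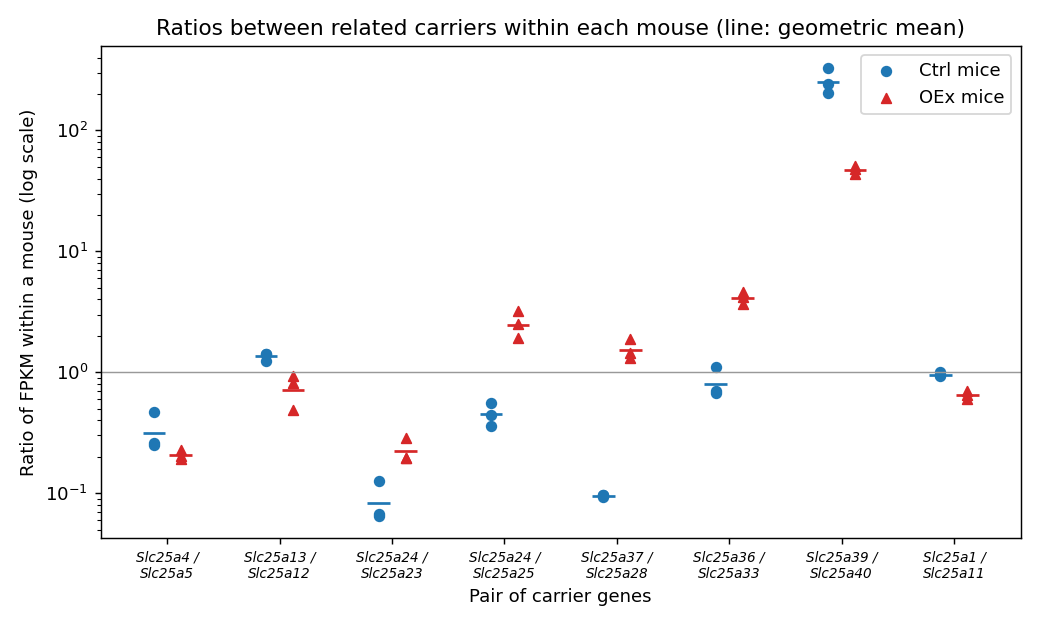
Ratio of FPKM between 2 related carriers within a mouse (y axis, log scale) for 8 pairs (x axis), with 1 symbol per mouse and a line at the geometric mean of each group. The groups do not overlap in any pair, and Slc25a37 over Slc25a28 lies at 1.30 to 1.89 in OEx and at 0.0925 to 0.0965 in Ctrl mice.

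Summed over the 47 members, the carriers made up 639, 645 and 722 FPKM in OEx and 1166, 1162 and 1002 FPKM in Ctrl mice. As a share of this sum, the uncoupling-protein-like carriers took 6.93 ± 0.262% in OEx and 1.78 ± 0.193% in Ctrl mice (mean ± SD, n = 3). Most of this was Slc25a30, at 5.28 ± 0.281% against 1.53 ± 0.273%. Their relative Ucp2 has no Slc25a symbol and is not in the sum. It averaged 22.6 FPKM in OEx and 95.5 FPKM in Ctrl mice, so the share does not describe the whole branch. The carboxylate carriers took 10.9 ± 0.302% against 15.2 ± 0.0360%, and the amino acid carriers 8.24 ± 0.237% against 10.9 ± 0.0753%. ADP/ATP exchange remained the largest role at 26.1 ± 2.06% against 30.0 ± 0.420%, and Slc25a5 alone gave 21.6 ± 1.45% against 22.8 ± 2.21%. The iron share was 10.8 ± 0.886% against 8.56 ± 0.292%, made up of different mitoferrins. Since the roles sum to the whole, a gain of 1 role lowers the shares of the rest.

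**Figure D4:**
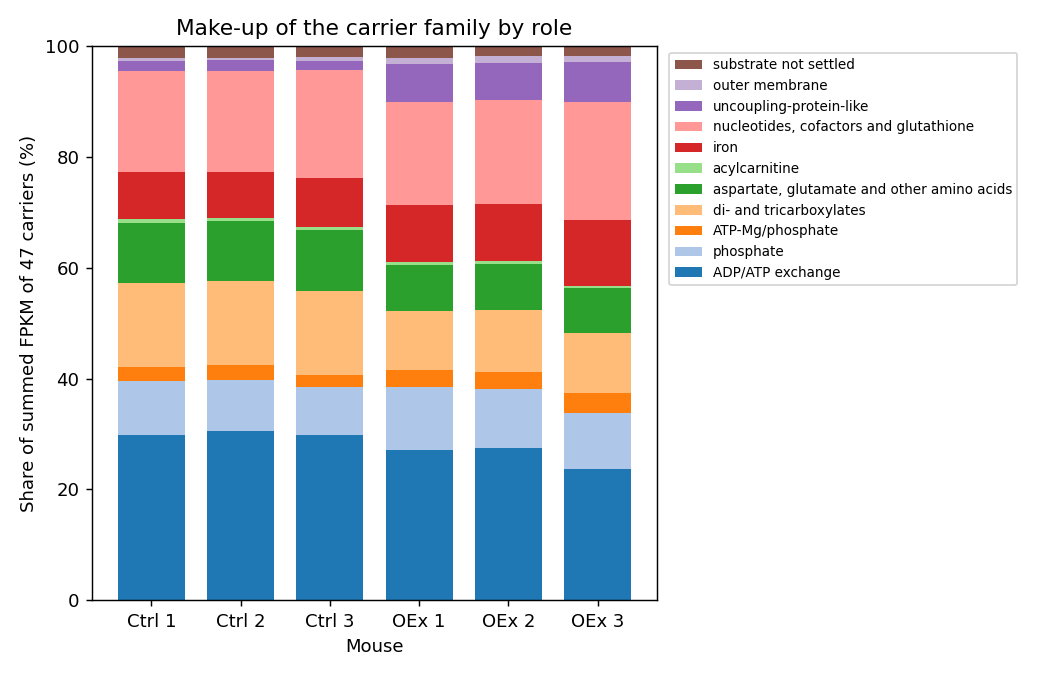
Share of the summed FPKM of the 47 carriers in percent (y axis) by role (colours) in each mouse (x axis). The purple segment, the uncoupling-protein-like carriers, is 6.93% on average in OEx and 1.78% in Ctrl mice, and the light orange segment, the carboxylate carriers, is 10.9% against 15.2%. Ucp2, which was lower in OEx mice, is not among the 47 carriers.

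Other genes of mitochondrial transport were read from a list of 37, of which 31 were tested. In OEx mice 6 were called lower (19.4% against 15.5% of all tested genes) and 0 were called higher by limma, where 3 were higher at an unadjusted p under 0.05 and limma-voom on recovered reads called 2. Their median log2 fold change was -0.71, against -0.07 for all tested genes. With library totals it was -0.04 against 0.59, and 3 were called lower (9.38% against 4.02%) and 3 higher (9.38% against 31.4%). Of the 6 called lower, 4 were among the 8 tested genes listed under the route that inserts carriers into the inner membrane, against 15.5% of all tested genes. Of these 8, 7 had log2 fold changes below 0 (53.0% of all tested genes did) and 1 was above 0 with overlapping groups. With library totals 6 of the 8 were below 0 (25.6% of all). The 4 called lower were the small chaperones Timm8b (-2.06), Timm13 (-1.91) and Timm10 (-1.37), and Timm22 (-1.17), the insertion channel itself. The 2 others were Ucp2 (-2.03), an uncoupling-protein homologue, and Smdt1 (-1.67), the EMRE subunit of the calcium uniporter. With library totals Timm8b, Timm13 and Ucp2 were still called lower, and Timm10 (-0.64), Timm22 (-0.47) and Smdt1 (-0.90) were not. This left 2 of the 8 import genes, against 4.02% of all tested genes.

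Timm8b, the most lowered of these, had 45.2, 42.3 and 45.3 FPKM in OEx and 173, 168 and 227 FPKM in Ctrl mice (FDR = 4.54e-05). Ucp2 had 25.4, 25.1 and 17.3 FPKM in OEx and 105, 109 and 72.9 FPKM in Ctrl mice (FDR = 0.000229), while Ucp1 and Ucp3 were below 0.21 FPKM. Every OEx mouse was below every Ctrl mouse for both genes. Ucp2 therefore went the opposite way from its relatives Slc25a27 and Slc25a30, on both scales. Among the genes that were higher by FDR alone were Abcb10 (log2 fold change 0.99), a transporter tied to haem synthesis, and the serine carrier Sfxn1 (0.49). With library totals both were called higher, at 1.68 and 1.14.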

How the data were processed

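Total RNA of whole AP from 6 mice was sequenced by the authors (TruSeq libraries, Illumina sequencing), who deposited 1 table of FPKM values per mouse by gene symbol. The submitters' processing notes name CASAVA, HISAT2 2.0.5, StringTie 1.3.3b and featureCounts 1.5.0-p3 without roles, and the genome build, the strand setting and the FPKM denominator are not given in the sources used here. Of 55076 entries per table, 544 without a gene symbol (0.632% to 1.21% of summed FPKM) were left out. Exon lengths from GENCODE M21 were matched by symbol to 53636 entries, all 47 carriers among them, and reads were recovered from the steps between FPKM values, with 96.9% to 97.5% of values under 1000 reads whole within 0.05 reads. Floors and reads cover counting error only.

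Groups were taken from the sample titles. limma (3.58.1, run in R 4.3.3) was fitted to log2(FPKM + 1) of the 12553 named genes that averaged 1 FPKM or more, with group as the single factor, eBayes with an intensity trend, a two-sided test and Benjamini-Hochberg adjustment (FDR). On data simulated for this comparison, with 12460 genes tested, 169 of 185 changed genes were recovered and 4 unchanged genes were called. The simulated mice had the same spread, with no scaling difference between the groups and no outlying mouse. It therefore checks the fit and does not give error rates for the real mice. Ratios were tested by exact permutation over the 20 assignments. Alternatives were another pseudocount, filter, scaling or tool, a replicate block, and leaving out mice. Same-numbered mice did not deviate together (r from -0.314 to -0.192), so the numbers were not taken as pairs. The labels name separate samples without litters or preparation dates, so the p-values cover only the spread between these samples, part of which may be technical. Values were shown for called carriers, for the most abundant carrier of each role and for the 8 pairs, and of the other transport genes for called ones; further genes were picked once their values were known. The carriers, lists and pairs were chosen with earlier results of these data known. Motif letters and shared 50-base windows were searched with Python 3.11.15, and amino acid sequences were not used here. Counts and sums cover all listed genes, but 1 carrier and 1 other transport gene are not reported here by name.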

Additional observations from a re-analysis of the deposited data

How the results depend on the processing

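Counts moved with the scaling and with the fold criterion. With library totals, 2 carriers were called lower and 8 higher, and the median log2 fold change of the carriers was 0.13; without the 20 most abundant genes in the totals it was -0.23, and with upper-quartile scaling -0.67. Among the carriers with values for every mouse, library totals reversed the sign of Slc25a3 (0.26) and Slc25a23 (0.39). A pseudocount of 0.1 gave a median of -0.61 and no filter gave -0.18, where more low genes enter. By FDR without the fold criterion 21 carriers were lower and 8 higher. Leaving out 1 mouse gave 10 to 11 carriers lower, 3 to 4 higher and a median of -0.59 to -0.47.

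Among the other transport genes, 6 were called lower, against 15.5% of all tested genes. With a pseudocount of 0.1 there were 10 (2359 of all 12553), and with library totals 3 (4.02% of all). With upper-quartile scaling there were 11 (2414 of all 12525), and by FDR alone 22 (36.5% of all). None was called higher (0, against 12.8% of all). There were 2 with a pseudocount of 0.1 (2248 of all 12553) and 3 with library totals (31.4% of all). Without the 20 most abundant genes there were 2 (2827 of all 13270), and with limma-voom 2 (2525 of all 12463). By FDR alone 3 were higher (30.9% of all). When 1 mouse was left out 0 to 2 were called higher, where 1536 to 1694 of all tested genes were. Without mouse 3 of both groups, chosen after seeing the data, 1 was called higher (1791 of all 12517) and the median of the carriers was -0.65. The mean of mice 1 and 2 as 1 sample per group was also chosen after seeing the data. With it 1 transport gene was called higher, and 11 carriers were called lower and 4 higher. Of all 12551 genes tested in that run, 1921 were called lower and 1576 higher.

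The replicate block changed no count of calls among the carriers or the other transport genes, with 10 carriers lower and 4 higher and a median of -0.52. Of all 12553 tested genes, 1906 were called lower and 1565 higher with it, against 1941 and 1604 without it. The 8 ratios kept their direction with a pseudocount of 1. Because the groups did not overlap in any of the 8 pairs, leaving out or averaging mice could not have turned the direction. Scaling to library totals multiplied the deposited FPKM by 1.22 to 1.35 in OEx mice and by 0.726 to 0.815 in Ctrl mice. Why the deposited denominators differed between the groups was not tested.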
